A study of Mus musculus with 4 samples.

Results

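TGF-beta and BMP signalling was examined in total RNA of mouse embryonic fibroblasts (MEF cells) through 52 named genes, which encode ligands of the TGF-beta family, the proteins that store, process or block those ligands, their receptors, the SMAD transcription factors and a few immediate targets. The genes were a fixed list of symbols, and all 52 were found among the 54842 gene identifiers of the deposited count table. By textbook role, 19 belong to the TGF-beta/activin branch, 22 to the BMP branch and 11 to both branches or to neither. The data consist of 2 libraries of wt MEF cells and 2 libraries of Top2β-null MEF cells, which lack topoisomerase 2β, an enzyme that relieves torsion and entanglement of DNA. The cells of all 4 libraries were untreated and were grown in the same kind of serum-containing medium, and the series was made to ask whether this enzyme has a topological role in transcription of major satellite repeats. The Top2β-null MEF cells were received from other laboratories and derive from Top2β-null mice, so genotype and the origin of the cell culture cannot be told apart. The labels do not say that the libraries of a genotype were separate cultures, and the p-values then measure only the spread between these libraries.

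Ligands of this family are dimers that bring together type I and type II receptor kinases at the cell surface. TGF-betas and activins lead to phosphorylation of SMAD2 and SMAD3, and BMPs to phosphorylation of SMAD1, SMAD5 and SMAD9, after which these receptor-regulated SMADs pair with SMAD4 and act on target genes in the nucleus. Much of the control lies outside the cell: TGF-betas are secreted in a latent form tethered to matrix by LTBP proteins, follistatins trap activins, and noggin, chordin and gremlins trap BMPs. In fibroblasts, TGF-beta is known for driving matrix and contractile genes, and BMPs for driving the ID genes. Counts of mRNA, as measured here, give neither secreted protein nor SMAD phosphorylation.

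The total count per library was between 133116830 and 149647278. Top2b itself, at chr14:16365179-16435462 of GRCm38, had 18259 and 18465 normalized counts in wt and 3879 and 3789 in Top2β-null MEF cells, where a normalized count is a count scaled to a common library size. The Top2β-null libraries were thus well below both wt libraries, with counts over the gene still present. All 10 fibroblast markers examined were measured in every library. Of these, Pdgfra, Pdgfrb and Thy1 were called higher and Col1a1 and Col3a1 lower in Top2β-null MEF cells, and the list summed to between 1342370 and 1366320 in wt libraries against between 933770 and 940434 in the Top2β-null libraries. Among markers of other cell types, the smooth muscle list summed to between 123725 and 126611 normalized counts in wt and to between 18704 and 18745 in Top2β-null MEF cells. Most of the wt sum was Acta2 (104063 and 106901 in wt, 5256 and 5431 in Top2β-null), and Acta2, Tagln and Cnn1 were called lower. Smtn went the other way (10678.5 and 10864 in wt, 12656 and 12387 in Top2β-null), higher by adjusted p alone in edgeR's test. Myh11 overlapped between the groups, and Des went from 88.8 and 139 to 2.07 and 0.99. The endothelial list summed to between 637 and 643 in wt against between 3862 and 4022 in Top2β-null MEF cells. Most of that sum was Flt1, at 395 and 411 in wt and 3484 and 3649 in Top2β-null MEF cells, and Kdr was called higher as well (71.7 and 68.6 in wt, 203 and 205 in Top2β-null). Vwf had 74.7 and 50.2 in wt and 115 and 111 in Top2β-null, Tek had 43.4 and 34.8 in wt and 9.32 and 3.96 in Top2β-null, Pecam1 and Cdh5 stayed between 16.6 and 32.3 in all 4 libraries, and Sox17 was at 0. The leukocyte list summed to between 2420.3 and 2501 in wt libraries and between 1355 and 1357 in Top2β-null libraries, with Tyrobp and Adgre1 at 0 throughout. That fall was in Cd68 (1641 and 1688 in wt, 302 and 289 in Top2β-null), whereas Csf1r (739.8 and 767 in wt, 962 and 978 in Top2β-null) and Fcer1g (30.3 and 33.8 in wt, 53.9 and 53.5 in Top2β-null) were higher by adjusted p alone in edgeR's test. Itgam had 1 count in each wt library and 28.0 and 28.7 normalized counts in the Top2β-null libraries. The epithelial list was also lower in the Top2β-null libraries (86.8 to 92.7 in wt, 24.9 to 30.7 in Top2β-null), as was the skeletal muscle list (371 to 388 in wt, 119 to 146 in Top2β-null), and the cartilage list summed to 4517 to 4562 in wt and 5113 to 5225 in Top2β-null. Most of the cartilage sum was Sox9, while Acan went from 98.9 and 100.5 to 5.18 and 3.96 and Col2a1 from 8.07 and 9.66 to 166 in both Top2β-null libraries. The part of these lists in the results was not tested, except as given beside them. In bulk RNA, fewer cells of a type and less RNA per cell cannot be told apart.

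Top2β-null MEF cells differed from wt MEF cells mainly at the outer and inner ends of the pathways, in ligands, extracellular antagonists and ID targets, while the receptors and the receptor-regulated SMADs stayed within the fold cut-off with the exception of 1 receptor. Higher in Top2β-null MEF cells were the ligand genes Tgfb1, Inhba and Inhbb, the antagonists Fst and Grem1, the receptor Acvr2b, the inhibitory SMAD gene Smad6 and all 4 ID genes. Lower were Tgfb2, the antagonists Fstl3, Nog and Chrd, and the protease gene Bmp1. In numbers, 45 of the 52 members had enough counts to be tested, and 11 of these were called higher and 5 lower by edgeR's quasi-likelihood test (called genes have an adjusted p under 0.05 over all features, a log2 fold change beyond 1 in either direction and more than 100 normalized counts on average). Across all 26566 features tested, 5.27% were called higher and 4.97% lower, against 24.4% and 11.1% of the tested members. Only 17952 of these features had a mean over 100 normalized counts and so could be called. Of the tested members, all but Bmp6, Ltbp2 and Gdf15 could be called, so the shares are not fully alike. Without the fold and mean cut-offs, 24 members were higher and 16 lower, against 32.5% of all features in the higher and 32.5% in the lower direction. The groups did not overlap for 25 members with higher and 17 with lower Top2β-null values, against 40.3% and 40.2% of all features. The median log2 fold change (Top2β-null over wt) was 0.17 over the tested members and 0.0027 over all features.

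**Figure D1:**
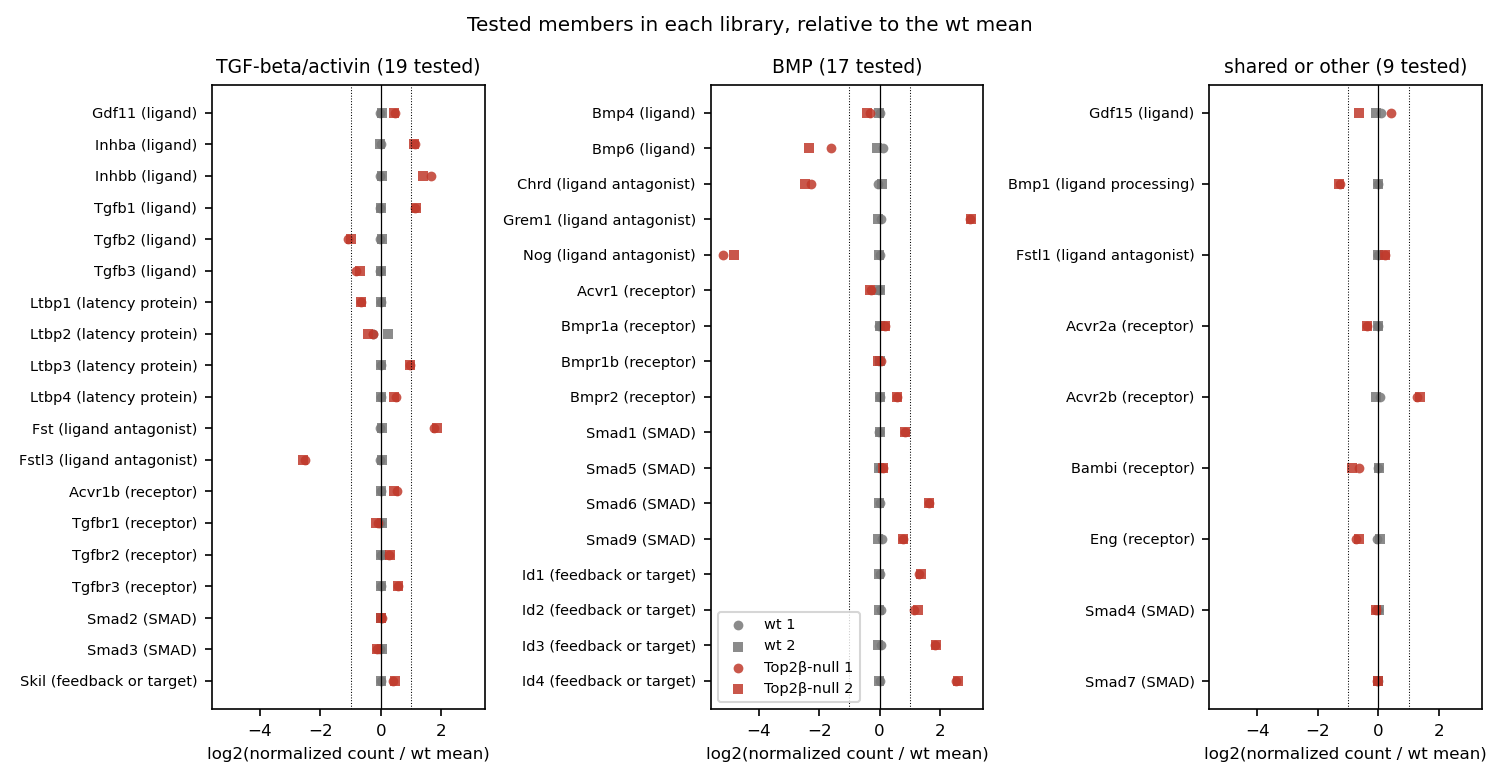
Normalized count of each of the 45 tested members in each of the 4 libraries, as log2 of its ratio to the mean of the wt libraries (x axis), with genes on the y axis grouped by branch and role and dotted lines at -1 and 1. The 2 libraries of a genotype lie close together for most genes, and Nog (log2 fold change -4.97) and Grem1 (3.0) lie farthest from 0.

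The 3 TGF-beta ligand genes moved in different directions. Tgfb1, which encodes the isoform best known from immune and wound responses and lies at chr7:25687002-25705077, had 1939 and 1985 normalized counts in wt and 4327 and 4355 in Top2β-null MEF cells. Tgfb2, at chr1:186622792-186705989, had 2847 and 2957 in wt and 1356 and 1454 in Top2β-null MEF cells. Both differences were far larger than the distance between libraries of a genotype, and in neither gene did the groups overlap. The log2 fold change was 1.15 ± 0.038 (SE) for Tgfb1 (edgeR's quasi-likelihood test, adjusted by the Benjamini-Hochberg method, adjusted p = 2.00e-13) and -1.05 ± 0.048 for Tgfb2 (adjusted p = 1.23e-11, same edgeR test). The Tgfb2 value lies close to the cut-off of 1 and missed it when libraries were scaled to the total count (-0.98) or when Top2β-null replicate 1 was left out (-0.96). Tgfb3 did not reach the fold cut-off, with a log2 fold change of -0.76 ± 0.051.

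Set against each other per length of transcript (TPM), the 3 isoforms summed to 39.9 ± 0.24 TPM (SD, n = 2) in wt against 40.3 ± 0.93 TPM (SD, n = 2) in Top2β-null MEF cells. Tgfb1 made up 22.5% ± 0.054 (SD, n = 2) of that sum in wt against 53.9% ± 1.53 (SD, n = 2) in Top2β-null MEF cells. Tgfb3 went from 48.5% to 30.9% and Tgfb2 from 29.0% to 15.2%, so that the most abundant TGF-beta transcript was Tgfb3 in wt and Tgfb1 in Top2β-null MEF cells. With 2 libraries against 2, an exact permutation test of such a share cannot give a p below 0.33, and these shares are given as descriptions.

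The latent TGF-beta binding proteins, which hold the latent ligands in the matrix, showed a similar exchange, with a sum that was steady by TPM. Ltbp1 had 58058 and 57991 normalized counts in wt and 36539 and 36787 in Top2β-null MEF cells, and Ltbp3 had 11860.4 and 11873 in wt and 23018 and 23155 in Top2β-null MEF cells. For both genes the groups were clearly apart, although neither passed the fold cut-off (log2 fold changes of -0.66 ± 0.025 and 0.96 ± 0.024). Ltbp3 passed it under scaling to the total count (1.03) and without Top2β-null replicate 1 (1.00). The summed level of Ltbp1 to Ltbp4 was 171 ± 2.21 TPM in wt against 174 ± 1.76 TPM in Top2β-null MEF cells (SD, n = 2 each), of which Ltbp1 was 73.2% and 49.8% and Ltbp3 was 17.7% and 36.9%. Ltbp4 had a log2 fold change of 0.46 ± 0.032, and Ltbp2, with at most 111 normalized counts in any library, overlapped between the groups.

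**Figure D2:**
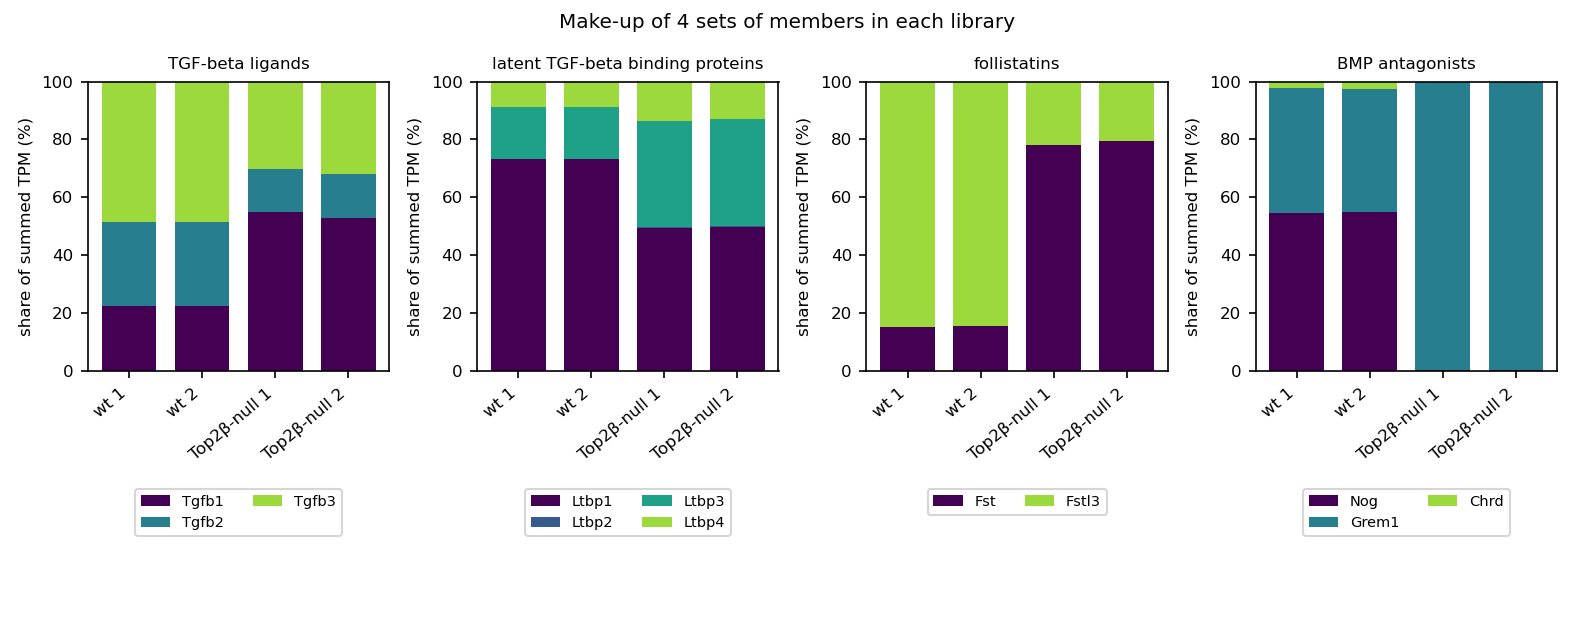
Share of each gene in the summed TPM of its set (y axis, percent) in each library (x axis) for the TGF-beta ligands, the latent TGF-beta binding proteins, the follistatins and the BMP antagonists. Tgfb1 goes from 22.5% to 53.9%, Fst from 15.4% to 78.8% and Grem1 from 42.8% to 99.4% between wt and Top2β-null MEF cells (means of 2 libraries).

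Both activin beta subunit genes were higher in Top2β-null MEF cells. Inhba (chr13:16011851-16031621), whose product dimerizes to activin A, had 6966 and 6804 normalized counts in wt and 14911 and 14779 in Top2β-null MEF cells, and Inhbb (chr1:119415465-119422248), which encodes the subunit of activin B, had 87.8 and 90.8 in wt and 279.6 and 235 in Top2β-null MEF cells. The Top2β-null libraries lay above both wt libraries in each gene. The log2 fold changes were 1.11 ± 0.026 for Inhba (adjusted p = 1.97e-15) and 1.52 ± 0.15 for Inhbb (adjusted p = 1.27e-07, both by edgeR's quasi-likelihood test). By TPM, Inhba made up at least 97.3% of the 2 subunits in every library. Gdf11, a ligand that signals like activins, had a log2 fold change of 0.46 ± 0.034.

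Follistatin genes, whose products neutralize activins, moved in opposite directions. Fst (chr13:114452290-114458951) had 1447 and 1520.3 normalized counts in wt and 5045 and 5358 in Top2β-null MEF cells, a log2 fold change of 1.81 ± 0.044 (edgeR, adjusted p = 3.23e-15). Fstl3 (chr10:79777272-79782630) had 4276 and 4408 in wt and 759 and 733 in Top2β-null MEF cells, a log2 fold change of -2.54 ± 0.046 (edgeR, adjusted p = 1.00e-16). The 2 genes therefore exchanged places, Fstl3 being the higher of the pair in wt and Fst in Top2β-null MEF cells. Per length, Fst was 15.4% ± 0.17 of their sum in wt against 78.8% ± 1.13 in Top2β-null MEF cells (SD, n = 2 each). Prss57 lies on the opposite strand over 47.3% of the exonic bases of Fstl3 and moved with it (2157 and 2224 in the wt libraries, 397 and 410.04 in the Top2β-null libraries), and as the strand setting of the counting is not given in the sources used here, reads of the pair cannot be told apart. The log2 ratio of summed activin beta subunits to summed follistatins (TPM) was -0.93 ± 0.057 in wt against 0.73 ± 0.054 in Top2β-null MEF cells (SD, n = 2 each). The change of sign rests on Fstl3 (41.0 TPM in wt, 7.69 in Top2β-null), whose reads are uncertain. Fst alone rose more than Inhba did, 3.51-fold against 2.16-fold by normalized counts. Fstl1, a more distant relative expressed by many mesenchymal cells, had a log2 fold change of 0.21 ± 0.024.

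Among the receptors, 12 of 13 were tested and 1 was called, higher (8.3%, close to the 5.27% of all features). Acvr2b (chr9:119402118-119434995), a type II receptor for activins and related ligands, had 194 and 178 normalized counts in wt and 453 and 480.4 in Top2β-null MEF cells. Both Top2β-null libraries lay above both wt libraries, and the log2 fold change was 1.33 ± 0.097 (edgeR, adjusted p = 4.42e-09). Its close relative Acvr2a had 4239 and 4240.3 in wt and 3273 and 3281 in Top2β-null MEF cells (log2 fold change -0.37 ± 0.034), so that Acvr2b made up 5.96% ± 0.34 of the summed TPM of the pair in wt against 17.1% ± 0.57 in Top2β-null MEF cells (SD, n = 2 each).

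The receptors for TGF-beta were expressed in all libraries. Tgfbr1, the type I kinase, had 6582 and 6862 normalized counts in wt and 6258 and 6013 in Top2β-null MEF cells. Tgfbr2, the type II kinase, had 8004 and 8042 in wt and 9712 and 9779 in Top2β-null MEF cells, and Tgfbr3, the co-receptor betaglycan, had 7641 and 7747 in wt and 11399 and 11476 in Top2β-null MEF cells. Tgfbr1 was slightly lower and the other 2 were higher without overlap, at log2 fold changes of -0.13 ± 0.031, 0.28 ± 0.025 and 0.57 ± 0.025. Scaled to the total count, Tgfbr1 did not pass edgeR's test (-0.062, adjusted p = 0.083). Acvr1b, the type I receptor for activins, had 1036 and 1034 in wt and 1487 and 1406 in Top2β-null MEF cells (0.48 ± 0.054).

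BMP receptors were likewise present in both genotypes. Bmpr1a, a type I receptor, had 12602 and 12792 normalized counts in wt and 14339.9 and 14254 in Top2β-null MEF cells. Bmpr2, the type II receptor for BMPs, had 13362 and 13313 in wt and 19799 and 19665 in Top2β-null MEF cells, and Acvr1, another type I receptor, had 3920.2 and 3990.1 in wt and 3233 and 3171 in Top2β-null MEF cells. In these 3 genes the groups did not overlap, as in 40.3% of all features on the higher and 40.2% on the lower side, with log2 fold changes of 0.17 ± 0.025, 0.57 ± 0.024 and -0.30 ± 0.036. Bmpr1b overlapped between the groups, and the sign of its fold change depended on the scaling. Other members bind ligand or modulate receptors. The co-receptor gene Eng and the pseudoreceptor gene Bambi had log2 fold changes of -0.69 ± 0.095 and -0.75 ± 0.12, and Acvrl1, a type I receptor of endothelium, had at most 8 counts in any library and was not tested.

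The SMADs of the 2 branches were set side by side. Smad2 had 6149 and 6209 normalized counts in wt and 6296 and 6253 in Top2β-null MEF cells, and Smad3 had 5416 and 5651 in wt and 5002 and 5045 in Top2β-null MEF cells. The log2 fold change of Smad2 was 0.022 ± 0.027 and did not pass the test (edgeR, adjusted p = 0.499), and that of Smad3 was -0.14 ± 0.031 (edgeR, adjusted p = 8.85e-04). Both TGF-beta/activin SMADs were thus close to their wt level, and which of them passed the test depended on the scaling: with libraries scaled to the total count, the adjusted p by edgeR was 0.00837 for Smad2 (log2 fold change 0.092) and 0.0608 for Smad3 (-0.070).

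Of the BMP SMADs, Smad1 had 4492 and 4525 normalized counts in wt and 8018 and 7977 in Top2β-null MEF cells. Smad5 had 9932 and 9834 in wt and 10597 and 10756 in Top2β-null MEF cells, and Smad9 had 1596 and 1460.4 in wt and 2595 and 2586 in Top2β-null MEF cells. All 3 were higher in both Top2β-null libraries than in both wt libraries, as were 40.3% of all features, with log2 fold changes of 0.83 ± 0.027, 0.11 ± 0.025 and 0.76 ± 0.050, and none reached the cut-off of 1. The log2 ratio of summed Smad1, Smad5 and Smad9 to summed Smad2 and Smad3 (TPM) was 0.46 ± 0.044 in wt against 0.98 ± 0.0024 in Top2β-null MEF cells (SD, n = 2 each).

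Smad4, the common partner, had 8853 and 9052 normalized counts in wt and 8558 and 8413 in Top2β-null MEF cells (log2 fold change -0.077 ± 0.026). That small difference depended on the scaling, and shrank to -0.0076 under another scaling, where it did not pass edgeR's test. Of the inhibitory SMADs, Smad7, which restrains both branches, had 10888 and 10802 in wt and 10569 and 10771 in Top2β-null MEF cells, and did not pass the test (log2 fold change -0.023 ± 0.025, edgeR, adjusted p = 0.434). Smad6 (chr9:63953076-64022059), which acts mainly on BMP signalling and is itself a known BMP target, had 749.9 and 745 in wt and 2311 and 2291 in Top2β-null MEF cells. Smad6 was the SMAD with the clearest separation of the groups, at a log2 fold change of 1.62 ± 0.050 (edgeR, adjusted p = 7.59e-14). It made up 8.86% of the summed TPM of the inhibitory SMADs in wt against 23.3% ± 0.35 (SD, n = 2) in Top2β-null MEF cells.

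Of the 7 BMP-branch ligands among the members, Bmp4 and Bmp6 had enough counts for a test, at log2 fold changes of -0.38 ± 0.054 and -1.93 ± 0.22. Bmp6 was just outside the rule because its mean was 94.2 normalized counts. Bmp2 and Gdf6 had no count in any library, which allows at most 3 counts in each, Bmp5 had 1 count in 1 library, and Bmp7 had 0 in both wt libraries and 7 and 8 counts in the Top2β-null libraries. Gdf5 had at most 5 counts in any library. Bmp4 was 94.3% of the summed TPM of Bmp4 and Bmp6 in wt against 98.0% in Top2β-null MEF cells. Outside the members, the BMP ligand gene Bmp8b had 598 and 608 normalized counts in wt and 386 and 437 in Top2β-null MEF cells (log2 fold change -0.55 ± 0.078). It was lower in both Top2β-null libraries without reaching the fold cut-off, and Bmp3, at between 45.4 and 60.6 in all 4 libraries, overlapped between the groups. Bmp1, which despite its name is a protease that cleaves procollagens, chordin and LTBPs, had 8674 and 8652 in wt and 3606 and 3553 in Top2β-null MEF cells. Bmp1 (chr14:70474558-70520234) was lower in both Top2β-null libraries, with a log2 fold change of -1.28 ± 0.028 (edgeR, adjusted p = 1.07e-15).

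The BMP antagonists Nog and Grem1 gave the largest fold changes among the tested members, in opposite directions. Nog (chr11:89300638-89302332), which encodes noggin, had 1607 and 1546 normalized counts in wt and 43.5 and 56.5 in Top2β-null MEF cells. Chrd (chr16:20733127-20742384), which encodes chordin, had 250.3 and 275 in wt and 54.9 and 47.5 in Top2β-null MEF cells. Grem1 (chr2:113746164-113758646), which encodes gremlin 1, had 3109.7 and 2936 in wt and 23998 and 24468 in Top2β-null MEF cells. Nog was 31.5-fold and Chrd 5.13-fold lower, and Grem1 was 8.02-fold higher. The groups did not overlap in any of them, as in 40.2% of all features on the lower and 40.3% on the higher side. The log2 fold changes were -4.97 ± 0.097 (adjusted p = 2.23e-16), -2.36 ± 0.16 (adjusted p = 1.57e-09) and 3.0 ± 0.031 (adjusted p = 1.25e-19) by edgeR's quasi-likelihood test.

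Per length, wt MEF cells carried Nog and Grem1 in similar amounts and Top2β-null MEF cells carried almost only Grem1. Nog was 54.7% ± 0.19 and Grem1 42.8% ± 0.43 of the summed TPM of the 3 antagonists in wt (SD, n = 2). In Top2β-null MEF cells, Nog was 0.501% ± 0.085 and Grem1 99.4% ± 0.069 (SD, n = 2). The log2 ratio of summed Bmp4 and Bmp6 to the 3 antagonists (TPM) was -1.33 ± 0.016 in wt against -3.56 ± 0.099 in Top2β-null MEF cells (SD, n = 2 each).

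**Figure D3:**
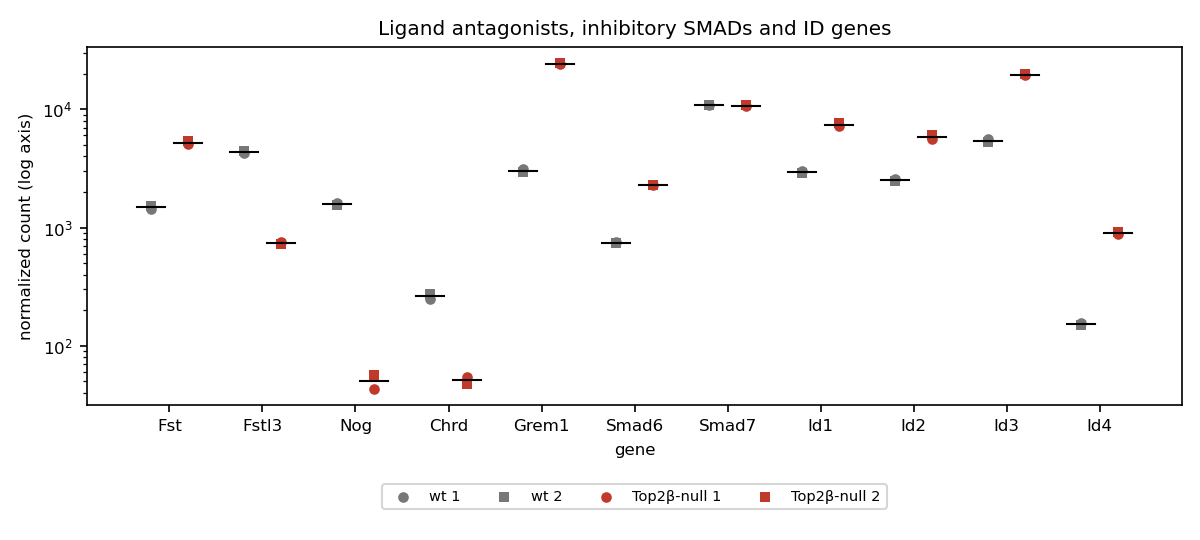
Normalized count (y axis, log scale) of ligand antagonists, inhibitory SMADs and ID genes (x axis) in each wt (grey) and Top2β-null (red) library, with black lines at the group means. Nog falls from 1607 and 1546 to 43.5 and 56.5 while Grem1 rises from 3109.7 and 2936 to 23998 and 24468, and Smad7 stays between 10569 and 10888.

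All 4 ID genes, which encode inhibitors of basic helix-loop-helix factors and are among the most direct BMP targets, were higher in Top2β-null MEF cells. Id1 (chr2:152736251-152737410) had 3002 and 2904 normalized counts in wt and 7223 and 7624 in Top2β-null MEF cells, and Id2 (chr12:25093799-25097140) had 2573 and 2453 in wt and 5573 and 5999.98 in Top2β-null MEF cells. Id3 (chr4:136143497-136145755) had 5611 and 5261 in wt and 19299 and 19884 in Top2β-null MEF cells, and Id4 (chr13:48261228-48266026) had 155 and 149.7 in wt and 875 and 909 in Top2β-null MEF cells. In each gene both Top2β-null libraries were above both wt libraries, as in 40.3% of all features. All 4 were called higher, against 5.27% of all features. The log2 fold changes, all past edgeR's test, were 1.33 ± 0.034 for Id1 (adjusted p = 7.45e-15), 1.20 ± 0.041 for Id2 (2.30e-13), 1.85 ± 0.031 for Id3 (3.74e-17) and 2.55 ± 0.083 for Id4 (1.30e-13). Id4 had the largest ratio and Id3 the largest level, and Id3 made up 45.6% of the summed TPM of the 4 genes in wt against 54.9% in Top2β-null MEF cells. Skil, a SMAD corepressor gene that TGF-beta induces, had a log2 fold change of 0.44 ± 0.029. The endothelial list, whose cells also use ID genes and Smad6, was higher in the same libraries through Flt1 and Kdr while Pecam1 and Cdh5 stayed between 16.6 and 32.3 normalized counts, and its part in these values was not tested.

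As these genes move together, their promoters are shown for Id2, Id3, Id4 and Smad6, taken from RefSeq's start sites on GRCm38.p6 and written 5′ to 3′ on the gene's strand. A promoter entry was present for 36 of the 52 members. The windows, of 250 bases before and 50 after the start site, were searched on both strands for GTCTAGAC, the palindrome bound by SMAD3 and SMAD4, and for GGCGCC, a GC-rich SMAD element. Capitals mark a match, and the sequences cover the 250 bases before the start site, with 4 more for Smad6 because its match spans that site.
Id2 promoter (chr12:25096093-25096342, minus strand): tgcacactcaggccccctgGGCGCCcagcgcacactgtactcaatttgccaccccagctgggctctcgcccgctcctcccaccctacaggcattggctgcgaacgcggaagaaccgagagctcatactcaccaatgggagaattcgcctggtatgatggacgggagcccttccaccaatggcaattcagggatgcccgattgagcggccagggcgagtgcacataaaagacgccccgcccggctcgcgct
Id3 promoter (chr4:136143572-136143821, plus strand): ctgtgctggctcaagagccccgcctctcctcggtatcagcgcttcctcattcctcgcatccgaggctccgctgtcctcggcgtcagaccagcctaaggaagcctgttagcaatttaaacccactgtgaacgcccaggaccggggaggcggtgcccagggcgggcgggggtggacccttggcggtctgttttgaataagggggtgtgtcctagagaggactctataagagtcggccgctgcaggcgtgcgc
Id4 promoter (chr13:48260866-48261115, plus strand): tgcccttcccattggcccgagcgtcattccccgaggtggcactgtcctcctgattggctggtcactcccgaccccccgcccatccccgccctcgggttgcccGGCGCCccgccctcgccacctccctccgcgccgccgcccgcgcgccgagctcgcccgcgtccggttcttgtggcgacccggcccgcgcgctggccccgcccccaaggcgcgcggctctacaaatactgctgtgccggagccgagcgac
Smad6 promoter (chr9:64022056-64022309, minus strand): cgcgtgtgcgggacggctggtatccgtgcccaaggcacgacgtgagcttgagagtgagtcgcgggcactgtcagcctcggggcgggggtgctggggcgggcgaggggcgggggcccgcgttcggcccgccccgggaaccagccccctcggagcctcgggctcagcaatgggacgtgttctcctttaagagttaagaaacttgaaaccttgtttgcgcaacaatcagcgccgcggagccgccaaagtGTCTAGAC

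GTCTAGAC was present in 1 of the 36 member windows, that of Smad6, and in 0.248% of all 27025 genes with a window (0.213% of 32851 windows). GGCGCC was present in 12 of the 36 (33.3%) and in 13.4% of all genes (11.9% of windows), among the members in Id2 (231 to 226 bases before the start site) and Id4 (148 to 143 bases before it). The Id3 window held neither of these strings of letters. Id1, which was also higher but for which no promoter is shown, was not among the members with a match. The 12 included genes called higher (Grem1, Id2, Id4), a gene called lower (Chrd) and genes that were not called, such as Tgfbr1, Bmpr1a and Smad5. These are matches of letters and say nothing about binding.

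By branch, 4 of the 19 tested TGF-beta/activin members were called higher and 2 lower, and 6 of the 17 tested BMP members were called higher and 2 lower, against 5.27% and 4.97% of all features. The median log2 fold change was 0.44 in the TGF-beta/activin branch and 0.57 in the BMP branch. Restricted to ligands, receptor kinases and receptor-regulated SMADs, which leaves out the co-receptor gene Tgfbr3, the medians were 0.28 over 11 TGF-beta/activin and 0.11 over 9 BMP members, and the order of the branches turned. With Tgfbr3 the first median was 0.37 over 12 members. In that restricted set no BMP member was called, against 3 higher and 1 lower in the TGF-beta/activin branch. All 8 called BMP members were thus antagonists, ID genes or Smad6. Of the 9 tested members common to both branches or outside them, Acvr2b was called higher and Bmp1 lower, and the median was -0.077.

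Per length, the order of the members changed between genotypes. In wt MEF cells the highest levels were those of Ltbp1 (125 ± 1.72 TPM), Fstl1 (85.6 ± 1.20 TPM) and Id3 (70.1 ± 4.09 TPM). In Top2β-null MEF cells they were those of Id3 (276 ± 3.13 TPM), Id1 (161 ± 4.59 TPM) and Grem1 (147 ± 0.58 TPM), each SD with n = 2. Grem1 ranked 24 of the 52 members in wt against 3 in Top2β-null MEF cells, Nog ranked 18 and 41, and Fstl3 ranked 8 and 33. Neighbours such as Smad4 (55.7 ± 0.16 TPM) and Smad7 (55.4 ± 1.03 TPM) in wt did not differ beyond their spread. TPM is relative to all gene counts of a library, so its changes differ from those of normalized counts, and small changes can differ in sign. Smad4 rose from 55.7 to 57.6 TPM on average while its mean normalized count fell from 8953 to 8485. A sum that is steady by TPM thus need not be steady by normalized counts.

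Other genes of the pathways were examined in 7 lists of textbook members, with 63 genes tested, of which 12 were called higher and 9 lower, against 5.27% and 4.97% of all features. In a count added after the data were seen, 3 genes (Msx1, Dlx5 and Amhr2) reached 10 counts in 1 genotype only and so passed the count filter through it, and of the other 60 genes 11 were higher and 9 lower. Of 13 tested genes that TGF-beta is known to induce, 1 was called higher and 5 lower, with a median log2 fold change of -0.36. By adjusted p alone in edgeR's test 3 were higher and 8 lower, against 32.5% of all features in each direction. The 7 genes not called were Junb (0.33), Klf10 (0.19), Tgif1 (-0.024), Col1a2 (-0.038), Pmepa1 (-0.31), Fn1 (-0.36) and Ccn1 (-0.54). Acta2, smooth muscle actin, had 104063 and 106901 normalized counts in wt and 5256 and 5431 in Top2β-null MEF cells (log2 fold change -4.30 ± 0.032), and the matrix gene Postn had 2573 and 2563 in wt and 41.4 and 46.5 in Top2β-null MEF cells (-5.86 ± 0.084). Both were far lower in each Top2β-null library. Lower as well were Tagln (-3.41 ± 0.040), Ccn2 (-2.11 ± 0.027) and Col1a1 (-1.38 ± 0.031), of which Tagln and Ccn2 have genes on the opposite strand over 62.4% and 23.2% of their exonic bases. Those genes moved with them (Gm48529 with Tagln at -3.46, Gm15270 with Ccn2 at -2.10), and reads of each pair cannot be told apart. Tgfbi, whose product is a matrix protein, went the other way, from 22.2 and 16.4 in wt to 7307 and 7251 in Top2β-null MEF cells (8.55 ± 0.076). Acta2 and Tagln are also in the smooth muscle marker list, of which 3 of 6 genes were called lower and 0 higher. In that list Smtn was higher by adjusted p alone in edgeR's test (0.22 ± 0.025), and Myh11 overlapped between the groups. The part of that list in these values was not tested.

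Of the genes known to respond to BMP, 5 had at least 10 counts in some library of each genotype, and 3 of these were called higher and 0 lower by edgeR's test, against 5.27% and 4.97% of all features. By adjusted p alone 4 of the 5 were higher and 0 lower, against 32.5% of all features in each direction, and their median log2 fold change was 1.92. Atoh8, a helix-loop-helix factor gene, had 250.3 and 257 normalized counts in wt and 2984 and 2938 in Top2β-null MEF cells (3.54 ± 0.059). Tbx3 had 446 and 476 in wt and 4741 and 5081 in Top2β-null MEF cells (3.41 ± 0.054), and Gata2 had 583 and 635 in wt and 2285 and 2333 in Top2β-null MEF cells (1.92 ± 0.056). Msx1, a homeobox gene, had no count in either wt library and 859 and 869 normalized counts in the Top2β-null libraries, which is at least 291-fold higher against a floor of 3 counts per library. With either Top2β-null library left out, Msx1 no longer had 10 counts in 2 libraries and was not tested. Msx1 passed the count filter through the Top2β-null libraries alone and Dlx5 (-2.19 ± 0.38) through the wt libraries alone, so neither is counted above. With both the median stayed at 1.92 and 4 of 7 genes were called higher, and with Dlx5 but not Msx1 the median was 1.14, with 3 of 6 called higher. The other tested genes of the list were Hey1 (0.30 ± 0.23) and Runx2 (0.36 ± 0.027). Msx2, Sp7, Dlx3 and Hamp had too few counts to be tested. Msx2 had 3 and 13 counts in wt and 0 and 3 in Top2β-null MEF cells, and Sp7 had 5 and 5, then 0 and 0. Dlx3 had 7 and 4, then 11 and 5, and Hamp had 1 and 0, then 4 and 1.

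Of the remaining lists, whose counts stand against 5.27% of all features called higher and 4.97% lower, 3 of 7 genes for activation of latent TGF-beta were called higher and 0 lower. By adjusted p alone 3 were higher and 3 lower, against 32.5% of all features in each direction, and the median log2 fold change was -0.024. The 3 lower genes were Itgb6 (-2.99 ± 0.26), at a mean under 100 normalized counts, the fibrillin gene Fbn1 (-0.98 ± 0.025) and Itgav (-0.46 ± 0.025), and Itgav and Itgb6 encode integrin subunits that pair to activate TGF-beta. Thbs1, whose product thrombospondin 1 can release TGF-beta from its latent complex, had 35135 and 35490 normalized counts in wt and 194602 and 194540 in Top2β-null MEF cells (2.46 ± 0.029). The fibrillin gene Fbn2 had 72.7 and 58.0 in wt and 5435 and 5326 in Top2β-null MEF cells (6.36 ± 0.071), and Itgb8, an integrin subunit gene of a TGF-beta activating integrin, had a log2 fold change of 1.23 ± 0.070. Each was higher in both Top2β-null libraries. Among 7 other tested antagonist genes, the small proteoglycan genes Dcn (4.99 ± 0.050) and Bgn (1.11 ± 0.030) were higher, and Dand5 (-1.51 ± 0.081) and the protease gene Htra1 (-1.01 ± 0.026) were lower. Htra1 missed the fold cut-off with TMM factors of genes alone (-0.99), total-count scaling (-0.94) and no filter (-0.996), and without Top2β-null replicate 1 (-0.95). Of 6 other receptors and co-receptors, the TGF-beta co-receptor gene Cd109 was lower (-1.68 ± 0.027), and of 15 SMAD partners and regulators the ubiquitin ligase gene Smurf2 was lower (-1.19 ± 0.025). Of 9 other ligands, Gdf7 (2.56 ± 0.20) and Gdf1 (1.13 ± 0.10) were higher, and Gdf1 shares all of its exonic bases with Cers1 on the same strand, so that its value is uncertain. The mean of Gdf7 passed 100 normalized counts only with both Top2β-null libraries, and was 84.0 without replicate 1 and 79.6 without replicate 2.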

How the data were processed

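The 2 wt and 2 Top2β-null MEF libraries were made from total RNA with a stranded kit that removes ribosomal RNA. After trimming by Trim Galore!, the authors mapped reads to the mm10 genome using STAR, with many alignments per read allowed, and counted genes and repeat families by TEtranscripts; the strand setting is not given in the sources used here. The deposited values are whole-number counts, without normalization. Every column was assigned to a library by its label.

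The 52 members, the branches and all gene lists were chosen with earlier results of these data known. Of 54842 gene identifiers, 54495 matched GENCODE M21 (GRCm38), which gave symbols, positions and exonic lengths for TPM. Genes and repeat families reaching 10 counts in 2 or more libraries (26566 features) were tested with edgeR 4.0.16 in R 4.3.3: TMM factors, a quasi-likelihood fit of genotype alone, and Benjamini-Hochberg adjustment over all features. Standard errors were obtained by dividing the size of the log2 fold change by the square root of F. A call required that the adjusted p was under 0.05, the log2 fold change beyond 1 in either direction and the mean over 100 normalized counts, the cut-offs the authors applied to DESeq2. Values in every library are given for members that were called, all SMADs and the main receptors, and for genes of the other lists that were called values are given; Ltbp1 and Ltbp3 were added after their values were seen. Some genes of the other lists are not reported here. The script was tested on simulated data. DESeq2 1.42.0, other scalings, filters and left-out libraries were alternatives. Libraries of a genotype were further apart than counting error gives (chi-square over its degrees of freedom was 3.65 for wt, 5.07 for Top2β-null).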

Additional observations from a re-analysis of the deposited data

How the results depend on the processing

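Over all features, 825 were called higher and 927 lower with a minimum of 100 counts in every library, and 8627 higher and 8630 lower by adjusted p alone. For the members, that minimum left 10 called higher and 3 lower, since Inhbb, Nog and Chrd had too few counts to be tested, and adjusted p alone gave 24 higher and 16 lower; for the other pathway genes it gave 22 higher and 28 lower. The minimum left 8 of those called higher and 8 lower, as Fbn2, Gdf7, Msx1, Tgfbi and Postn were not tested. The median log2 fold change of TGF-beta/activin members was 0.51 with scaling to the total count and 0.28 for ligands, receptor kinases and receptor-regulated SMADs only, or 0.37 with the co-receptor Tgfbr3, a set added after the data were seen. That of BMP members was 0.58 when TMM used genes alone, 0.63 under total-count scaling, 0.81 unfiltered, 0.80 with the minimum of 100 counts and 0.11 for its ligands, receptor kinases and receptor-regulated SMADs. Leaving out 1 library gave between 0.42 and 0.46 for the first branch and between 0.55 and 0.60 for the second, with 11 to 12 members called higher and 5 to 6 lower. The added calls were Ltbp3 without Top2β-null replicate 1 and Bmp6 without either Top2β-null replicate (-2.28 and -1.59), whose mean then passed 100.

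Bmpr1b, Gdf15 and Smad7, which passed no test, changed sign. Bmpr1b was 0.0023 under DESeq2, 0.013 when TMM used genes alone, 0.064 under total-count scaling, 0.012 unfiltered and 0.0013 at the minimum of 100 counts, and between -0.028 and 0.069 with 1 library left out. Gdf15 was 0.049 and Smad7 0.046 with scaling to the total count, and with 1 library left out they lay between -0.59 and 0.44 and between -0.044 and 0.029. Scaling to the total count moved the median of all features by 0.070. The cause of these shifts was not tested. The replicate numbers do not pair the libraries (the deviations of same-numbered libraries correlated at 0.021 across features), and with the replicate number as a block 11 members were called higher and 5 lower, with medians of 0.44 and 0.57. With 2 libraries per genotype the spread is estimated mainly by sharing across features, and a library left out assumes that the lone library varies like the others. Low counts limit what can be said of the 7 members that were not tested.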

Other observations

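Fbn1 and Furin, from the list for activation of latent TGF-beta, were not called with all libraries. Fbn1, the fibrillin that anchors LTBPs in matrix, had 29885 and 30369 normalized counts in wt and 15372 and 15155 in Top2β-null MEF cells (log2 fold change -0.98 ± 0.025, just under the cut-off, and called lower at -1.01 without wt replicate 1), while Fbn2 was called higher. Furin, the protease that cleaves the ligand precursors, had 10898 and 11315 in wt and 10892 and 10956 in Top2β-null MEF cells, and the groups overlapped.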
